A study of Homo sapiens with 3 samples.

Results

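The AP-1 transcription factor genes JUN, JUNB, JUND, FOS, FOSB, FOSL1, FOSL2, ATF2, ATF3 and MAFF were followed across 3 Affymetrix arrays of HEK293T, a widely used human embryonic kidney cell line in which SV40 large T antigen is expressed. The genes were chosen by name, with earlier results of these data known. Each was read through the probe set that names no other gene, or, for FOSB, the one with the higher mean of its 2 such probe sets. In this way 10 genes of the 22395 measured were described. The cells had been transduced with lentivirus and selected in puromycin as stable cultures. One group carried the empty pCDF1 vector, another pCDF1 with wild-type TRAF7, and the last pCDF1 with the TRAF7 G536S mutant, with 1 array per group. All 3 groups therefore share the pCDF1 backbone, the infection and the selection. One label field spells the line HEK239T, whereas the titles give HEK293T. Neither the promoter of the construct nor whether a culture was 1 clone or a pool is given in the labels.

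AP-1 is a family of dimers of basic leucine zipper (bZIP) proteins that bind short palindromic elements in promoters and enhancers. JUN proteins pair with each other, with FOS proteins or with ATF proteins, whereas FOS proteins need a partner. MAP kinases act on the family at several points, for example when JNK phosphorylates JUN and ATF2, and many of its genes are switched on within minutes of serum, cytokines or stress. TRAF7 is an E3 ubiquitin ligase with WD40 repeats that has been described to bind the kinase MEKK3 and to act on JNK and p38 signalling, and G536S is a change in the WD40 part that is known from meningioma.

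Promoter sequences of JUN and ATF3 are shown because JUN is known to bind its own promoter, as JUN-ATF2 dimers, at a pair of AP-1-like elements, TGACATCA and TTACCTCA. RefSeq sequences (GRCh38.p14) of 250 bases before to 50 bases after an annotated start were at hand for 8 of the 10 genes (all but FOSL1 and ATF2), with 2 starts each for ATF3 and MAFF. They were searched on both strands for TGACTCA, the classical AP-1 element, for TGACGTCA, the cyclic AMP response element that ATF and CREB proteins bind, and for the JUN elements; palindromes were counted once and no matches overlapped. The 250 bases before the start follow, with the matches in capitals. The JUN sequence is chr1:58784048-58784297 (minus strand), that of ATF3, at the first of its starts, is chr1:212565157-212565406 (plus strand), and that of JUND, shown as a relative whose level differed little, is chr19:18281623-18281872 (minus strand).
JUN: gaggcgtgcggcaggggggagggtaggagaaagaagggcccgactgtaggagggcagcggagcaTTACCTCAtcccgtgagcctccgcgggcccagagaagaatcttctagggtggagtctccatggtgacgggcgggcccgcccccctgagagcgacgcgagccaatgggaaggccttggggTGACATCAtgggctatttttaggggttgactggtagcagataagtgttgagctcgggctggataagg
ATF3: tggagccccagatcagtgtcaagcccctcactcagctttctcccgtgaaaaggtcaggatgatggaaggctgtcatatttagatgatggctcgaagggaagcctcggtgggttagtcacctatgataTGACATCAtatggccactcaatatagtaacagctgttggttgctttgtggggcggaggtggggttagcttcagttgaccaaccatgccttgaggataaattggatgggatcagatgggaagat
JUND: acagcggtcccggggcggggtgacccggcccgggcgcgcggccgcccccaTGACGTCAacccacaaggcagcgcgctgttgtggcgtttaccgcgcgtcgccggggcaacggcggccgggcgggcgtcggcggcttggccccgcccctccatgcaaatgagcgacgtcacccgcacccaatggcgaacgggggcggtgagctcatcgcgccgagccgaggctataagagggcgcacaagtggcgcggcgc
In JUN, TTACCTCA began 186 bases and TGACATCA 67 bases before the start. The ATF3 window at its first start held the same TGACATCA, 123 bases before the start, and the JUND window held TGACGTCA 200 bases before it. MAFF held TGACGTCA 54 bases before its first start, and FOSL2 held TGACTCA at bases 5 to 11 after its start. No match was found at the second starts of ATF3 and MAFF, nor in JUNB, FOS and FOSB. Among all 35116 promoter windows of this length, 4.95% held TGACTCA, 1.85% TGACGTCA, 2.61% TGACATCA and 0.715% TTACCTCA. These matches describe the letters and were not tied to binding by any measurement here.

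All values below are log2 RMA intensities, and a difference is the log2 value of one array minus that of another. A gene was counted as higher or lower when 2 arrays were at least 1.5-fold apart (0.58 on the log2 scale), and genes with a mean at or above that of the median gene (1.21) were taken as past the expression filter. With 1 array per group no test between groups was possible, so the effect of a construct cannot be told apart from differences between single cultures, RNA extractions or arrays. TRAF7 itself read 5.66 with the empty vector, 8.11 with the wild type and 7.35 with G536S, so both construct arrays were above the control and G536S was below the wild type. Array medians lay between 1.01 and 1.04 and 75th percentiles between 1.73 (empty vector) and 1.86 (G536S). Of 8 kidney developmental genes 6 passed the filter, while PAX8 (0.73 to 0.77) and CDH16 (0.88 to 0.94) did not. In the order empty vector, wild type, G536S, EYA1, a coactivator of early kidney, read 5.47, 6.06 and 5.87, and SIX2, a factor of kidney progenitors, read 3.85, 2.99 and 3.34. Of the 6, EYA1 was thus 1.5-fold higher with the wild type (0.59, close to the threshold) and SIX2 lower (-0.86), and the log2 of the list's summed level read 6.27, 6.53 and 6.44. Of 8 neuronal-lineage genes 4 passed: the neurofilament genes NEFL (6.01, 6.26 and 5.62) and INA (6.25, 5.91 and 6.35), GAP43 and SYP. Between the constructs NEFL differed by -0.64, INA by 0.44 and SYP by 0.65, and the summed level read 7.27, 7.24 and 7.18. Of 4 epithelial genes 2 passed, none above 1.42. The part of these shifts in the AP-1 results was not tested. No measured endothelial gene of 4, and 1 each of 5 leukocyte genes (CD68) and 4 fibroblast genes (COL1A1), passed the filter. The log2 of the summed level differed between arrays by less than 0.1 for each of the leukocyte, endothelial and fibroblast lists (3.63 to 3.68, 2.88 to 2.91 and 3.47 to 3.56).

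Of the 10 genes, 7 passed the filter: JUN, JUNB, JUND, FOSB, FOSL1, ATF2 and ATF3. All 7 lay above the filter level on every array, the lowest value being that of ATF3 with the empty vector (1.28), so none passed through 1 array alone. FOS, FOSL2 and MAFF did not pass, and FOSL2 exceeded the level only with the wild type (1.38). With wild-type TRAF7, 3 of the 7 were at least 1.5-fold higher than with the empty vector and 0 were lower, where 5.42% of the 11198 genes past the filter were higher and 1.79% were lower. With G536S, 1 of the 7 was higher and 0 were lower, where 6.07% and 2.08% of all genes were. In the direct comparison of G536S with the wild type, 0 were higher and 2 were lower, against 2.17% and 1.81%. At the 2-fold level, JUN alone was higher with the wild type and 0 of the 7 were lower (0.795% and 0.161% of all genes), 0 were higher or lower with G536S (0.929% and 0.268%), and JUN alone was lower in G536S minus wild type with 0 higher (0.268% each way). The median difference of the 7 genes was 0.20, 0.055 and -0.21 in these 3 comparisons, beside 0.082, 0.096 and 0.0069 for all genes. These medians depend on the scaling: after quantile normalization those of the 7 genes were 0.065, -0.085 and -0.24, beside -0.023, -0.029 and -0.012 for all genes, and after cyclic loess they were 0.083, -0.080 and -0.23. Over all 10 genes the medians were 0.097, 0.0036 and -0.19. The comparisons share arrays, so their counts do not stand apart from each other. In these bulk samples, fewer cells expressing a gene and less of its RNA per cell cannot be told apart.

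**Figure D1:**
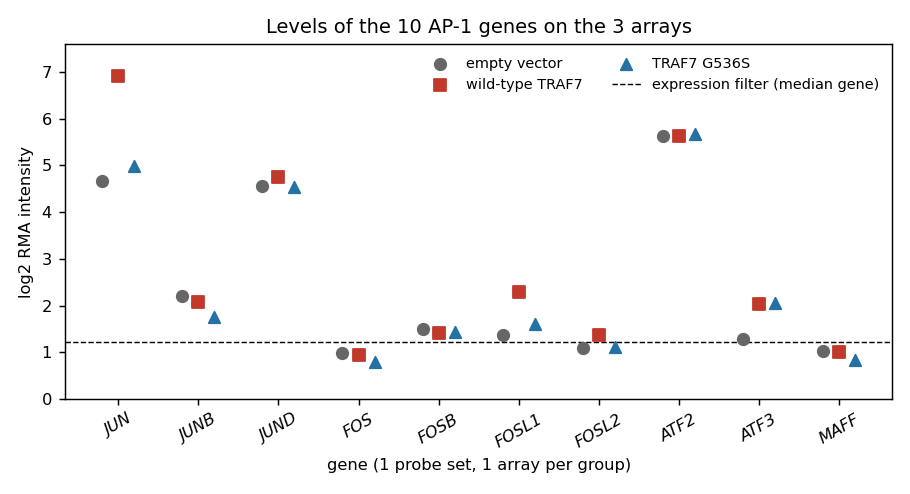
Log2 RMA intensity (vertical axis) of the 10 AP-1 genes on the array of each group; circles are empty vector, squares wild-type TRAF7, triangles TRAF7 G536S, and the dashed line is the filter level of 1.21. JUN stands at 6.91 with the wild type against 4.66 and 4.98, and ATF3 is the gene whose construct arrays (2.03 and 2.06) lie together above the control (1.28). Levels of different genes come from different probes and are not to be compared with each other.

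JUN, the founding subunit and a strong activator, read 4.66 on the control array, 6.91 on the wild-type array and 4.98 on the G536S array. The wild-type array stood alone, and the G536S array lay close to the control. The difference was 2.25 (4.75-fold) for the wild type and 0.32 (1.25-fold) for G536S, and G536S was below the wild type by a log2 difference of -1.93 (3.81-fold). Among the 11198 genes past the filter JUN had the 4th highest difference with the wild type and the 4th lowest in G536S minus wild type, whereas with G536S against the empty vector it ranked 2402 from the highest. Over the deposited values and 3 rescalings the wild-type difference of JUN ran from 2.14 to 2.27, that of G536S from 0.17 to 0.35, and the direct one from -1.97 to -1.92.

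JUNB, a JUN relative that can restrain JUN at some promoters, read 2.21, 2.09 and 1.75 in the order empty vector, wild type, G536S. It was lowest with G536S, at a difference of -0.46 from the empty vector (1.38-fold) and -0.34 from the wild type, and both are under 1.5-fold. After quantile normalization the first of these became -0.61, past 1.5-fold. The wild-type difference of JUNB was -0.12.

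JUND, the JUN protein found in most resting cells, read 4.56, 4.76 and 4.55. Its differences were 0.20 with the wild type, -0.013 with G536S and -0.21 between the constructs, all under 1.5-fold, and the sign of the G536S value changed with the scaling (-0.17 to 0.019). All 3 JUN genes were lower with G536S than with the wild type, JUN by far more in these arrays (-1.93, against -0.34 and -0.21), and only JUN was past 1.5-fold, under the deposited values and each rescaling.

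Of the FOS group, FOSL1 (also called FRA1), a FOS relative without a transactivation domain that is itself a known target of AP-1, read 1.38 with the empty vector, 2.29 with the wild type and 1.62 with G536S. As with JUN, the wild-type array was above the others. The difference was 0.91 (1.88-fold) for the wild type, 0.24 (1.18-fold) for G536S and -0.67 (1.59-fold) between the constructs. In rank it was 126th from the highest with the wild type and 121st from the lowest in G536S minus wild type. Its levels lie low on the scale, where RMA values can compress a difference, and 1 array per group gives no measure of the spread.

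FOSL2 (FRA2) showed the same order at a lower size: 1.09, 1.38 and 1.11, with differences of 0.29, 0.020 and -0.27, none of which reached 1.5-fold. FOS, the classical immediate early partner of JUN, read 0.98, 0.93 and 0.79, below the filter level on all 3 arrays. FOSB, another immediate early FOS gene, read 1.498, 1.42 and 1.43 on one probe set and 0.99, 0.99 and 0.96 on its second. Its differences ran from -0.077 to 0.0088 on the first and from -0.031 to -0.0044 on the second. In these cultures FOS and the second FOSB probe set were thus read below the level of the median gene in all 3 groups.

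ATF2, a JUN partner that JNK and p38 phosphorylate, was read well above the filter and was close to level: 5.63, 5.62 and 5.68. Its differences were -0.0037 with the wild type, 0.055 with G536S and 0.059 between the constructs, and the first 2 changed sign with the scaling.

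ATF3, a stress-induced bZIP factor, was read close to the filter level (1.21) on the control array. It read 1.28 with the empty vector, 2.03 with the wild type and 2.06 with G536S. It was at least 1.5-fold higher on both construct arrays, which lay together, where JUN and FOSL1 were so on the wild-type array alone; this difference in pattern was not tested. Against the empty vector it was higher by 0.75 (1.68-fold) with the wild type and 0.78 (1.72-fold) with G536S, at ranks 286 and 269 from the highest, and the constructs differed by 0.035. Both of these differences use the same empty vector value, so they do not support each other. Over the rescalings they ran from 0.66 to 0.77 and from 0.69 to 0.81.

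MAFF, a small MAF protein that lacks a transactivation domain, read 1.02, 1.00 and 0.83, below the filter level throughout. Its differences were -0.025, -0.19 and -0.17.

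**Figure D2:**
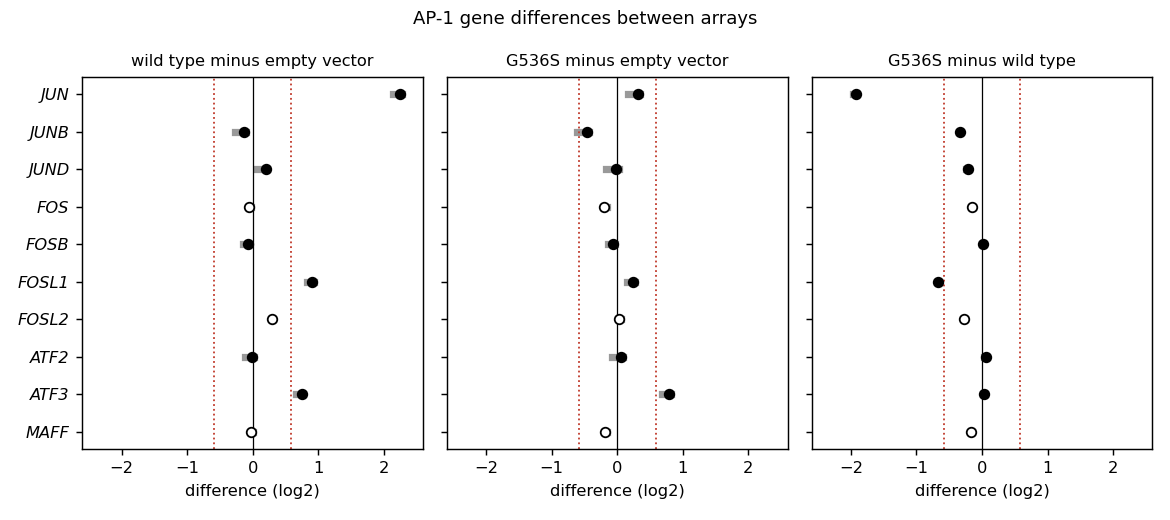
Differences between arrays (horizontal axes, log2) for the 10 AP-1 genes in the 3 comparisons; filled points passed the expression filter, open points did not, grey bars span the deposited values and 3 rescalings, and red dotted lines mark 1.5-fold. JUN, FOSL1 and ATF3 lie beyond 1.5-fold with the wild type (2.25, 0.91 and 0.75), ATF3 alone with G536S (0.78), and JUN and FOSL1 in G536S minus wild type (-1.93 and -0.67).

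The empty vector array had a lower 75th percentile than the others (1.73 against 1.85 and 1.86), though the highest single value (12.57 against 12.38 and 12.14), and differences from it depended on the scaling. Quantile normalization shifted the median difference of all genes by -0.10 for the wild type and by -0.12 for G536S, and cyclic loess by -0.088 and -0.10. The share of higher genes among those 1.5-fold apart was 75.1% for the wild type and 74.5% for G536S, and it became 47.5% and 41.5% after quantile normalization and 51.3% and 46.8% after cyclic loess. Centring each array on its median went the other way, to 80.6% and 79.96%, with shifts of 0.026 and 0.032. In the comparison of the constructs with each other, which does not use the empty vector array, the share moved from 54.5% to 49.3% and 50.4%. The differences of JUN, FOSL1 and ATF3 with the wild type, of ATF3 with G536S, and of JUN and FOSL1 between the constructs were past 1.5-fold in the deposited values and under each of the 3 rescalings.

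**Figure D3:**
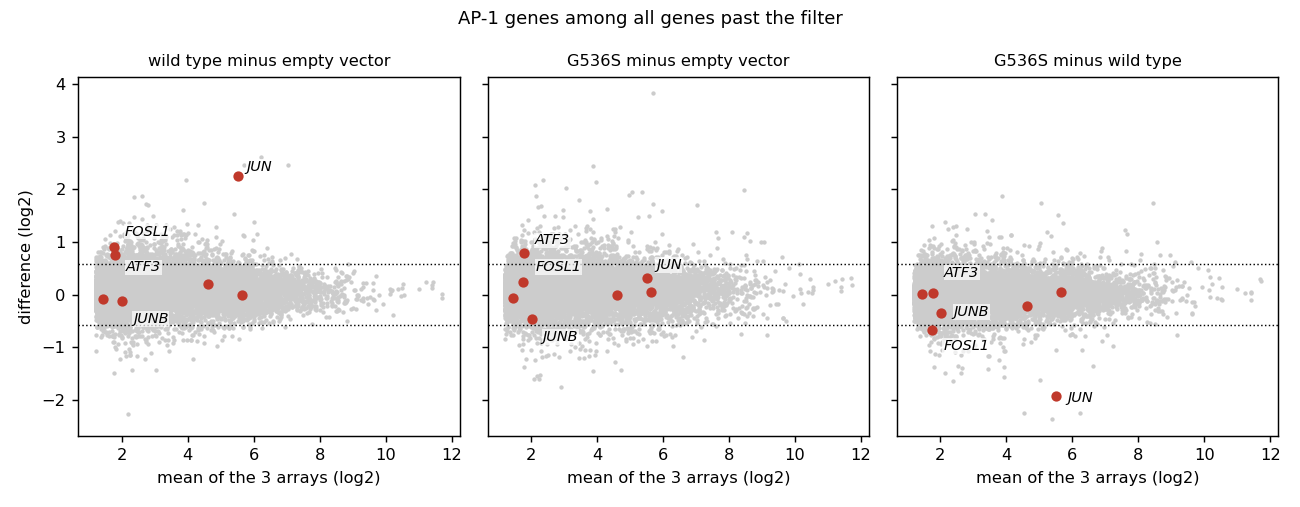
Difference (vertical axes, log2) against the mean of the 3 arrays (horizontal axes, log2) for the 11198 genes past the filter (grey) and the 7 AP-1 genes among them (red; JUN, FOSL1, ATF3 and JUNB named), in the 3 comparisons; dotted lines mark 1.5-fold. JUN lies at the edge of all genes with the wild type and in G536S minus wild type (ranks 4 and 4) and inside the cloud in G536S minus empty vector, while FOSL1 and ATF3 lie at low mean levels of 1.76 and 1.79.

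The genes whose pattern over the 3 arrays was most like that of JUN were sought by the Euclidean distance between the array values of each gene minus the gene's mean, over the 11198 genes and 3 arrays. Nearest was TNFRSF12A, the receptor of the cytokine TWEAK, at a distance of 0.28 (3.01, 5.19 and 3.63 in the order empty vector, wild type, G536S). RHOB, a small GTPase that is itself an immediate early gene, followed at 0.28 (5.24, 7.85 and 5.60), and ANXA1, a membrane-binding annexin, at 0.29 (1.69, 3.54 and 1.91). All 3 were highest on the wild-type array, as JUN was, and TNFRSF12A was also 1.5-fold above the control with G536S (0.62), which became 0.46 after quantile normalization and 0.49 after cyclic loess, under 1.5-fold. The zinc finger gene ZNF492 came next at 0.34, and UBE2Q2P16, a pseudogene, at 0.73. These genes were picked for their likeness to JUN, so a shared peak follows from the choice. With 3 arrays a pattern has few degrees of freedom, and likeness is a description only.

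**Figure D4:**
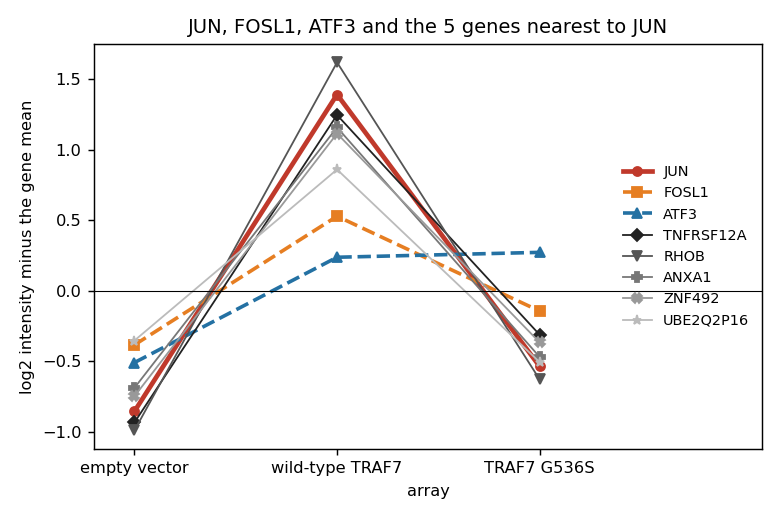
Log2 intensity minus the gene's mean over the 3 arrays (vertical axis) for JUN, FOSL1, ATF3 and the 5 genes nearest to JUN, by array; lines join the values of 1 gene and the arrays have no order. JUN and the 5 genes nearest to it peak on the wild-type array, FOSL1 does so at a smaller size, and ATF3 is level between the construct arrays.

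Other parts of the AP-1 system were described through 5 lists, fixed with earlier results of these data known. Of other bZIP genes, the possible partners and relatives, 31 of 37 were measured and 24 passed the filter. With the wild type 2 were higher and 0 lower, with G536S 0 and 0, and in G536S minus wild type 0 were higher and 2 lower, with medians of 0.090, 0.040 and -0.040. Of all genes past the filter 5.42% were higher and 1.79% lower with the wild type, so 2 of 24 lies near that share, and 1.81% were lower in G536S minus wild type. With G536S 6.07% of all genes were higher and 2.08% lower. Under quantile normalization, as under cyclic loess, 1 bZIP gene was also lower with the wild type. There 3.42% and 3.099% of all genes were lower, so 1 of 24 lies near these shares. In the deposited values the same genes, CREB5 and NFIL3, made up the higher and the lower counts. CREB5, a relative of ATF2 that can pair with JUN, read 2.74, 4.06 and 3.22, a difference of 1.32 (2.49-fold) with the wild type, 0.48 with G536S and -0.84 between the constructs. NFIL3, a bZIP repressor, read 1.54, 2.41 and 1.76, with differences of 0.87, 0.22 and -0.65. Both were highest on the wild-type array, in the order seen for JUN. They were named because they were called in these comparisons, so being highest there follows from that choice.

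Of kinases and scaffolds of the JNK, p38 and ERK cascades, which phosphorylate AP-1 proteins or lie upstream, 27 of 31 were measured and 24 passed the filter. With the wild type 1 was higher and 1 lower, with G536S 0 and 1, and in G536S minus wild type 0 and 1; the medians were 0.11, 0.056 and -0.073. Counts of 1 in 24 lie near the shares of all genes (5.42% higher and 1.79% lower with the wild type, 2.08% lower with G536S and 1.81% lower between the constructs). Quantile normalization gave 0 higher and 2 lower with the wild type, and cyclic loess 0 and 1. The shares of all genes moved the same way, to 3.099% higher and 3.42% lower after quantile normalization. After cyclic loess they were 3.27% and 3.099%. MAP2K5, the kinase that activates ERK5, read 1.52, 2.16 and 1.55 (0.63 with the wild type, -0.60 between the constructs), and its wild-type difference became 0.53 after quantile normalization and 0.55 after cyclic loess, under 1.5-fold. MAPK8IP3 (JIP3), a scaffold of the JNK cascade, read 4.37, 3.66 and 3.21, so both construct arrays were below the control, at -0.71 and -1.16 (2.24-fold). Serum response factors and proteins that modify or degrade AP-1, 16 of 17 measured and 16 past the filter, had 0 genes 1.5-fold apart in any of the 3 comparisons in the deposited values, with medians of -0.061, -0.0074 and 0.026. After quantile normalization 2 of them were lower with G536S, and 1 after cyclic loess. Of all genes 4.45% and 3.95% were lower there. In the deposited values 6.07% of all genes were higher with G536S, and 2.17% were higher between the constructs.

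Of other immediate early genes, 36 of 38 were measured and 25 passed the filter. With the wild type 4 were higher and 0 lower, with G536S 0 higher and 3 lower, and in G536S minus wild type 0 higher and 6 lower, of which DUSP1, RHOB, KLF6 and CITED2 differed most. Of all genes 5.42% were higher and 1.79% lower with the wild type, 6.07% and 2.08% with G536S, and 2.17% and 1.81% between the constructs. Over the 3 rescalings the number higher with the wild type ran from 3 to 5, the number lower with G536S from 2 to 4 and the number lower between the constructs from 6 to 7. The matching shares of all genes ran from 3.099% to 5.99%, from 1.79% to 4.45% and from 1.804% to 2.02%. The medians were 0.097, -0.12 and -0.19. RHOB differed by 2.61, 0.36 and -2.25 in these comparisons. DUSP1, a phosphatase that inactivates JNK, p38 and ERK, read 5.17, 6.70 and 4.33. It was thus higher than the control with the wild type (1.52) and lower with G536S (-0.84), and the constructs differed by -2.37 (5.16-fold). KLF6, a zinc finger factor, read 3.69, 4.52 and 3.52 (0.83, -0.17 and -0.99). CCN1, a matricellular protein, was higher by 0.60 with the wild type, and by 0.55 and 0.54 after quantile normalization and cyclic loess, under 1.5-fold. Lower with G536S than with the empty vector were also the growth regulator MYC (6.37, 6.16 and 5.58; -0.79) and the nuclear receptor NR4A2 (1.62, 1.26 and 1.01; -0.61), the last at -0.58 and under 1.5-fold when each array was centred on its median. CITED2, a regulator of CBP and p300 binding, differed by -0.76 between the constructs.

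Of genes described as AP-1 targets, 32 of 37 were measured and 19 passed the filter. With the wild type 4 were higher and 0 lower, with G536S 0 and 0, and in G536S minus wild type 0 higher and 3 lower, with medians of 0.086, 0.011 and -0.13, beside the same shares of all genes (5.42% and 1.79%, 6.07% and 2.08%, 2.17% and 1.81%). Quantile normalization and cyclic loess each left 2 higher with the wild type and made 1 lower with G536S, and the former also made 1 lower with the wild type. The shares of all genes changed too. With the wild type 3.099% were higher and 3.42% lower after quantile normalization, and 3.27% and 3.099% after cyclic loess. With G536S 4.45% and 3.95% were lower after these 2 rescalings. A count of 1 in 19 lies near the shares that were lower. TNC, the matrix protein tenascin C, read 1.92, 2.98 and 1.49 (1.06, -0.43 and -1.49). VIM, an intermediate filament protein, read 4.34, 5.10 and 4.74, HMOX1, the heme-degrading oxygenase, 2.16, 2.85 and 2.25, and the cytokine gene TGFB1 4.27, 4.92 and 4.71. All 4 were highest on the wild-type array. They were named for being at least 1.5-fold above the control there, so this largely follows from the choice. TIMP1, an inhibitor of matrix proteases, differed by -0.60 between the constructs, as did HMOX1 (-0.60). After quantile normalization and cyclic loess the wild-type differences of HMOX1 (0.54 and 0.58) and TGFB1 (0.53 and 0.53) fell short of 1.5-fold. The lists were drawn from general knowledge but with earlier results of these data known, so their counts are not independent of the data. Other factors act on these genes too.

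**Figure D5:**
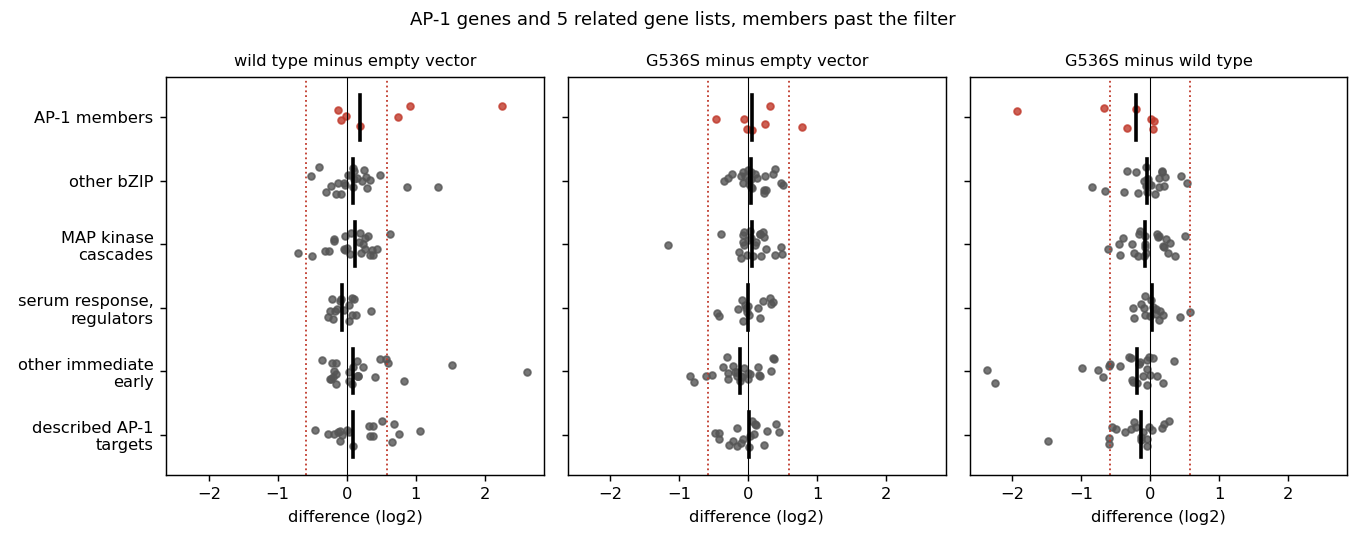
Differences between arrays (horizontal axes, log2) of the AP-1 genes (red) and of 5 related lists (grey), genes past the filter only; each point is a gene, black bars are list medians, vertical jitter has no meaning, and red dotted lines mark 1.5-fold. The medians lie between -0.21 and 0.20, and single genes such as RHOB (2.61), JUN (2.25) and DUSP1 (1.52) stand apart from their lists.

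The nearest measured genes on either side of the AP-1 genes in the GRCh38.p14 annotation were also read, 20 in all with 12 past the filter. None was 1.5-fold apart with the wild type (differences from -0.27 to 0.50), and 1 was with G536S. Of all genes past the filter 5.42% were higher and 1.79% lower with the wild type, and 6.07% and 2.08% with G536S. Counts of 0 and 1 among 12 lie near these shares. Beside JUN, MYSM1, a histone deubiquitinase, read 6.05, 6.06 and 6.27, and the divergent transcript JUN-DT read 1.00, 1.01 and 0.97, below the filter. Beside FOSL1, CCDC85B read 1.52, 1.46 and 1.44 and C11orf68 1.12, 1.20 and 1.04. MYSM1 differed by 0.017 with the wild type, unlike JUN. JUN-DT and C11orf68 lay below the filter and CCDC85B close to it, so they say little about a shared difference. Beside ATF3, NENF, a secreted neurotrophic factor, read 3.75, 4.06 and 4.67, which is 0.92 higher with G536S than with the empty vector and 0.61 higher than with the wild type (0.58, under 1.5-fold, after quantile normalization), while GARIN4 on the other side read 0.97, 0.92 and 0.96.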

How the data were processed

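Total RNA (300 ng) was labelled as biotinylated cRNA and hybridised to Affymetrix arrays, per the labels' protocols. Per the submitters' processing notes the authors summarised each probe set with RMA, and the deposited table holds the log2 values; neither software version nor array build is stated there. Base 2 was inferred, since the highest value, 12.57, exceeds what a 16-bit scanner gives as a natural log (11.09). Of 53617 probe sets, 25713 are annotated, 23871 with 1 gene, 1842 with several, and 27904 are unnamed here. Symbols were updated through the Entrez ID in RefSeq (22569 probe sets matched, 90 with a newer symbol; 1302 kept the older one). The probe set with the highest mean stood for a gene.

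The genes, lists and alternatives were chosen with earlier results of these data known. Named are TRAF7, the 10 AP-1 genes, up to 4 genes per list, direction and comparison at least 1.5-fold apart, the 5 genes nearest to JUN and the genes beside AP-1 genes; marker genes were named to check the line. Alternatives were 3 rescalings (quantile normalization, median centring and cyclic loess), averaging over probe sets, dropping the filter or raising it to the 75th percentile (2.87), and flooring at the 25th percentile (0.86). Counting was tested on simulated data. Python 3.11.15, numpy 2.4.6, pandas 2.3.3, matplotlib 3.10.9, R 4.3.3 and limma 3.58.1 were used. The number of arrays limits the precision.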

Additional observations from a re-analysis of the deposited data

Results flagged for a closer look

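DUSP1, the MAP kinase phosphatase, was at least 1.5-fold above the control on the wild-type array (1.52) and at least 1.5-fold below it on the G536S array (-0.84), so the groups went opposite ways. With 1 array per group this difference was not tested. No AP-1 gene went 1.5-fold in opposite directions with the constructs.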

How the results depend on the processing

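Among the AP-1 counts, 38 of 42 values under the alternatives stayed within 1.5 times the count from the deposited values. Several alternatives could hardly move these counts. The floor (0.86) lies below every value of the 7 genes past the filter, and averaging over probe sets touches FOSB alone. Dropping the filter adds only FOS, FOSL2 and MAFF, none of them 1.5-fold apart. With the filter at the 75th percentile only JUN, JUND and ATF2 remained, and the number higher with the wild type was 1, the number higher with G536S 0, and the number lower in G536S minus wild type 1, because FOSL1 and ATF3 no longer pass. After quantile normalization 1 gene, JUNB, was lower with G536S, where 4.45% of all genes were. No value past 1.5-fold reversed its direction under any alternative run. Of the differences, medians and list counts that were also recomputed, 961 of 996 stayed on the same side of 1.5-fold or within 1.5 times the count, 12 dropped below 1.5-fold, 5 rose past it and 18 list counts moved by over 1.5 times; counts and small medians within these bounds still changed. The AP-1 median with G536S, 0.055 in the deposited values, was -0.085 after quantile normalization and -0.080 under cyclic loess. Filters do not alter the difference of a single gene, so those were not recomputed there. No paired analysis was possible because each group has 1 array. Background signal limits what can be read of FOS, FOSL2 and MAFF.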
